A study of Mus musculus with 2 samples.

Results

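Costimulatory and checkpoint ligands of antigen-presenting cells were followed in myeloid cells sorted from mouse colorectal polyps. The 10 genes Cd80, Cd86, Icosl, Cd40, Cd274, Pdcd1lg2, Havcr2, Lgals9, Vsir and Sirpa, out of 32285 genes listed, were chosen by name, and all 10 had UMIs (unique molecular identifiers, which count captured RNA molecules) in both libraries. The WT library came from C57BL6/J mice, and the KO library came from mice of the same strain deficient in Clec7a (Clec7a-/-), the gene of the beta-glucan receptor Dectin-1. Polyps had been induced in both genotypes by the carcinogen AOM followed by 3 cycles of 1% DSS, a colitis-inducing agent, and were taken 16 weeks after AOM from mice labelled 26 weeks old. By the study's description, cells of 5 WT mice and of 4 KO mice were pooled, and cells were sorted on CD11b and CD11c, so that each genotype was 1 library. No test between genotypes was therefore possible, and genotype and library cannot be told apart. Clec7a itself was not analysed here, so the genotype labels were not checked against it.

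These molecules set how a T cell responds to the antigen that a dendritic cell (DC) or macrophage shows it. CD80 and CD86 engage CD28 to costimulate and CTLA-4 to inhibit, ICOS ligand engages ICOS, and CD40 is the receptor through which helper T cells activate DCs. PD-L1 (Cd274) and PD-L2 (Pdcd1lg2) both bind the inhibitory receptor PD-1. TIM-3 (Havcr2) and its partner galectin-9 (Lgals9), VISTA (Vsir), and SIRPα (Sirpa), which binds CD47 and restrains phagocytosis, are inhibitory molecules of myeloid cells. In the gut, DCs carry antigen to lymph nodes and mature on the way, whereas macrophages mostly stay in the tissue.

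Of 3467 WT and 3080 KO barcodes, 2696 and 1999 cells were kept after filtering, with a median of 3413 and 2671 UMIs per cell. The filter left out 771 WT and 1081 KO barcodes. Of the barcodes, 17 stood in both libraries, 6 of them among the cells kept. Cells were clustered without the 10 genes, and 12 of 16 clusters were named from marker lists. Mature DC-like cells (140 WT and 237 KO) expressed 10 of 10 markers of mature, migratory DCs. Conventional DCs were the cDC1-like cells (82 and 158), which are specialised in cross-presentation, and the cDC2-like cells (138 and 172). The DC classes were not sharply apart. The cDC1-like class was also raised for 5 of 6 proliferation genes and 2 of 10 mature DC markers, and the cDC2-like class for 4 of 10. Mature DC markers summed to 5851 CPM in WT and 5051 CPM in KO cDC1-like cells and to 5068 and 5104 CPM in cDC2-like cells. In mature DC-like cells they summed to 14780 and 15715 CPM. Macrophage-like cells fell into a Folr2 class (294 and 181) and a Cx3cr1 class (241 and 114). Monocyte-like cells (401 and 280), transitional-like cells between monocyte and macrophage (239 and 183) and granule-rich neutrophil-like cells (495 and 86) made up the other large named classes. Clusters 2, 4, 11 and 14 are given by number. Cluster 2 expressed neutrophil markers at a low UMI count, cluster 4 both neutrophil and monocyte markers, cluster 11 proliferation genes and cluster 14 interferon-induced genes. T-cell-like (67 and 120), B- or plasma-cell-like (11 and 21), epithelial-like (17 and 12) and mast-cell-like (16 and 5) cells were present despite the sort. Levels are CPM (UMIs of a gene per 1000000 UMIs of the cells named). Ranges in parentheses are 95% intervals, exact Poisson for levels, and cover counting error only, not the spread between mice.

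**Figure D1:**
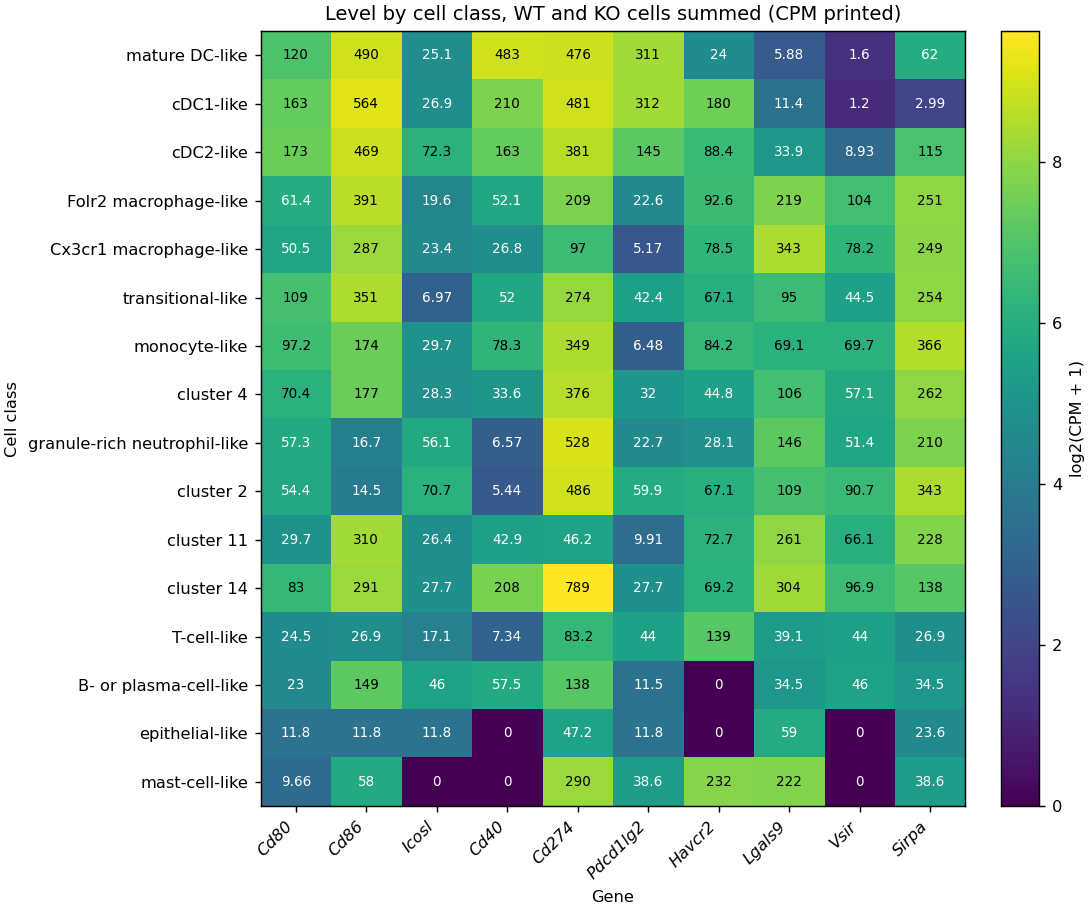
Level of each gene (columns) in each cell class (rows), with WT and KO cells summed. Classes differ in their mix of WT and KO cells, so a summed level mixes class with library. Colour gives log2(CPM + 1) and the printed number the CPM, and each column is read from top to bottom. Pdcd1lg2 and Cd40 peaked in DC classes, Vsir, Lgals9 and Sirpa had their lowest levels among the 10 largest myeloid classes in mature DC-like or cDC1-like cells, and Cd274 was also high in granule-rich neutrophil-like cells.

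The 10 genes fell into unlike patterns. The neighbouring PD-1 ligand genes were both high in cDC1-like and mature DC-like cells but parted in neutrophil- and monocyte-like cells. Cd274 (ENSMUSG00000016496, chr19:29367455-29388095) and Pdcd1lg2 (ENSMUSG00000016498, chr19:29410919-29471161) lie 22823 bases apart on the + strand of GRCm38 (GENCODE M21). RefSeq promoter windows were found for 7 of the 10 genes. The 250 bases before the annotated start are shown for these neighbours, whose levels differed in neutrophil- and monocyte-like cells, and for Lgals9, which was low in DC classes. Capitals mark a match, on either strand, to the NF-κB motif or to the interferon-response element searched as GAAANNGAAA (also read as TTTCNNTTTC).
Cd274, + strand, chr19:29367188-29367437, GRCm38.p6: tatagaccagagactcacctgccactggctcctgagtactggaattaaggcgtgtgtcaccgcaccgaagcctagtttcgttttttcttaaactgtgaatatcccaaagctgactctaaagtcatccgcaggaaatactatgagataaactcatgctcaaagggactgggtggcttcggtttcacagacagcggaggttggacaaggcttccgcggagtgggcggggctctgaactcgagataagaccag
Pdcd1lg2, + strand, chr19:29410669-29410918, GRCm38.p6: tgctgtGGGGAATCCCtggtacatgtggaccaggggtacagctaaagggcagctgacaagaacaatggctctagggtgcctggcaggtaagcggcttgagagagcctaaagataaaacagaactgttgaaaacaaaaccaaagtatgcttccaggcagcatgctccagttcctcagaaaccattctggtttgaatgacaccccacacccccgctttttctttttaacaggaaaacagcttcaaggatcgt
Lgals9, - strand, chr11:78984925-78985174, GRCm38.p6: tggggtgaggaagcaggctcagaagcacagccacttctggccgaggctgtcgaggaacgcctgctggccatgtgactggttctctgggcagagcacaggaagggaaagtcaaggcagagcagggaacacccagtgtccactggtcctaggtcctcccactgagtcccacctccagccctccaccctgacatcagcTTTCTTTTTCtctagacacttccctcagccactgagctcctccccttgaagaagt
The match in the Pdcd1lg2 window was the NF-κB motif, and 8.46% of the 32851 windows of 300 bases (250 before and 50 after the start) held it. The Lgals9 window held the interferon-response element at 2 places, shown before the start and again, not shown, after it, and 3.44% of windows held it at least once. The Icosl window also held the NF-κB motif. The interferon-gamma-activated motif TTCNNNGAA, held by 8.30% of windows, was in none of the 7. A match is a description of letters and no evidence of binding.

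Cd86 (ENSMUSG00000022901, chr16:36603869-36666081, - strand) was broad among antigen-presenting cells and nearly absent from neutrophils. Its level was 576 CPM (517 to 640) in WT and 557 CPM (513 to 603) in KO cDC1-like cells, 516 and 473 CPM in mature DC-like cells, and 451 and 483 CPM in cDC2-like cells. The Folr2 macrophage-like class followed with 401 and 371 CPM. Granule-rich neutrophil-like cells held 15.2 and 31.3 CPM, from 23 and 5 UMIs. The ranges of the mature DC-like and cDC2-like classes overlapped when both libraries were summed (490 CPM, 459 to 523, and 469 CPM, 430 to 511), and the cDC1-like class (564 CPM, 528 to 601) stood above both.

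Cd80 (ENSMUSG00000075122, chr16:38455561-38496335, + strand), which shares its receptors with Cd86, was highest in the cDC2-like class at 194 CPM (158 to 237) in WT and 156 CPM (127 to 190) in KO cells. The cDC1-like class was next with 183 and 151 CPM, and the ranges of these classes overlapped. Mature DC-like cells held 160 CPM in WT and 94.7 CPM in KO cells. In granule-rich neutrophil-like cells, where Cd86 was near its lowest, Cd80 stood at 58.1 and 50.1 CPM.

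Icosl (ENSMUSG00000000732, chr10:78069302-78083913, + strand) had the fewest UMIs of the 10 genes. It was 50.1 CPM in WT and 90.2 CPM in KO cDC2-like cells, and 56.8 and 50.1 CPM in granule-rich neutrophil-like cells. With both libraries summed, the cDC2-like class (72.3 CPM, 57.4 to 89.9), cluster 2 (70.7 CPM, 50.3 to 96.7) and granule-rich neutrophil-like cells (56.1 CPM, 45.4 to 68.7) did not separate.

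Cd40 (ENSMUSG00000017652, chr2:165055627-165072948, + strand) marked mature DC-like cells most sharply. It was 421 CPM (375 to 470) in WT and 523 CPM (482 to 566) in KO mature DC-like cells, against 234 and 197 CPM in cDC1-like and 180.4 and 149.7 CPM in cDC2-like cells. Macrophage-like classes held 24.6 to 64.0 CPM, and granule-rich neutrophil-like cells 6.26 to 6.60 CPM. The level in mature DC-like cells was higher than in all other cells by 2.94 on the log2 scale.

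Cd274 was spread over neutrophils, DCs and monocytes. Granule-rich neutrophil-like cells held 542 CPM (506 to 580) in WT and 401 CPM (309 to 512) in KO cells, and cluster 2 held 622 and 387 CPM. The level was 591 and 419 CPM in cDC1-like cells and 477 and 475 CPM in mature DC-like cells. With both libraries summed, granule-rich neutrophil-like cells (528 CPM, 494 to 565), cluster 2 (486 CPM), cDC1-like cells (481 CPM) and mature DC-like cells (476 CPM, 445 to 508) overlapped in their ranges. Summed levels mix class with library, as granule-rich neutrophil-like cells were mostly WT and cDC1-like cells mostly KO. Within each library the cDC1-like level was above the granule-rich neutrophil-like level, the reverse of the summed order. Cluster 14, the interferon-gene cluster, stood above them at 789 CPM (597 to 1022), but it held 18 WT and 7 KO cells. The lowest of the large myeloid classes was the Cx3cr1 macrophage-like class with 105 and 77.1 CPM.

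Pdcd1lg2, in contrast, was concentrated in DC classes. Its level was 312 CPM in both WT (269 to 360) and KO (279 to 347) cDC1-like cells, and 303 and 317 CPM in mature DC-like cells. It was lower in cDC2-like cells (184 and 113 CPM). Granule-rich neutrophil-like cells held 24.4 and 6.26 CPM, monocyte-like cells 7.63 and 4.46 CPM, and the Cx3cr1 macrophage-like class 4.75 and 6.17 CPM. Cluster 2, which expressed neutrophil markers, held more, 98.7 CPM in WT from 23 UMIs and 31.4 CPM in KO from 10 UMIs. The ranges of the cDC1-like and mature DC-like classes overlapped, and both lay above every other class.

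Havcr2 (ENSMUSG00000020399, chr11:46454935-46481255, + strand) separated the DC classes. It was 176 CPM in WT and 182 CPM in KO cDC1-like cells, and 9.56 and 33.3 CPM in mature DC-like cells, from 7 and 38 UMIs. T-cell-like cells, in which TIM-3 marks activated and exhausted cells, held 183 and 107 CPM. The Folr2 and Cx3cr1 macrophage-like classes lay between 72.0 and 98.3 CPM in either library. Mast-cell-like cells were highest in WT at 285 CPM, but the class had 16 WT and 5 KO cells.

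Lgals9 (ENSMUSG00000001123, chr11:78962974-78984946, - strand), Vsir (ENSMUSG00000020101, chr10:60346851-60372684, + strand) and Sirpa (ENSMUSG00000037902, chr2:129592835-129632228, + strand) were lower in mature DC-like and cDC1-like than in macrophage-like cells. Lgals9 was 329.5 CPM (306 to 354) in WT and 376 CPM (339 to 417) in KO Cx3cr1 macrophage-like cells and 211 and 234 CPM in the Folr2 class, against 8.20 and 4.39 CPM in mature DC-like and 9.96 and 12.1 CPM in cDC1-like cells. Vsir was 92.3 and 125 CPM in the Folr2 class and 79.5 and 75.1 CPM in the Cx3cr1 class. Mature DC-like cells held 0 WT and 3 KO UMIs of Vsir. A floor of 3 counts at the WT depth is 4.10 CPM, and the upper Poisson limit of the 0 is 5.04 CPM, and the cDC1-like class held 1 UMI in each library. Sirpa was 357 CPM (324 to 393) in WT and 382 CPM (337 to 432) in KO monocyte-like cells and 232 to 256 CPM in the macrophage-like classes. It was 1.66 and 3.74 CPM in cDC1-like cells, from 1 and 4 UMIs, whereas cDC2-like cells held 76.2 and 147 CPM. Sirpa has closely related gene copies, and reads shared with them may be counted or lost.

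Mature DC-like cells lay above all other cells by more than 2-fold for 2 of the 10 genes, Cd40 and Pdcd1lg2 (2.46 on the log2 scale), and below them by more than 2-fold for 4, Havcr2 (-1.79), Sirpa (-1.84), Lgals9 (-4.73) and Vsir (-5.24). Of all 9856 genes with at least 50 UMIs, 12.9% were higher and 25.3% lower by this measure. The median over the 10 genes was 0.14 and over all genes -0.11. The 10 genes took no part in the clustering, but the cells were grouped by genes that vary with them, and this contrast is given without a test.

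Across the 27 class-by-library points with at least 50000 UMIs, the likeness of the patterns was measured as Pearson's r of log2(CPM + 1). Points of one library share its depth, and r is a description. The points included small non-myeloid ones, such as KO epithelial-like (12 cells) and WT mast-cell-like (16 cells). KO epithelial-like cells held 0 UMIs of Cd274, Pdcd1lg2, Cd80, Cd86, Cd40, Havcr2, Vsir and Sirpa, and a shared 0 can raise r. The weight of such points in r was not tested. Cd86 and Cd40 (r = 0.83) and Cd80 and Cd40 (r = 0.81) ran together, as did Vsir and Sirpa (r = 0.73), while Pdcd1lg2 and Lgals9 ran opposite (r = -0.74). Cd274 and Pdcd1lg2 had r = 0.64. Among 6983 genes, those most like Cd40 were Bcl2a1a (0.92), a survival factor, Tnfsf9 (0.91), which encodes the costimulatory 4-1BB ligand, and Atox1 (0.90). The closest to Cd86 were Osgin2 (0.95), Sh3pxd2b (0.92) and Cd74 (0.92), the invariant chain of MHC class II. Napsa (0.96), Rassf2 (0.93) and C9orf72 (0.91) were closest to Cd80, and Slc15a2 (0.75), Cdc42bpg (0.73) and Tnrc18 (0.73) to Icosl. Plek (0.95), Gfod1 (0.92) and Uvrag (0.92) were closest to Cd274, and Itga4 (0.85), Nr4a3 (0.85) and Crtc2 (0.84) to Pdcd1lg2. Herc1 (0.83), Kdm4c (0.83) and Lsg1 (0.83) were closest to Havcr2, and Nceh1 (0.88) and Zfp503 (0.83) were among the closest to Lgals9. Vsir ran with Serpinb8 (0.92) and Slc11a1 (0.92), and Sirpa with Abca1 (0.94), the cholesterol exporter, and Atp6v0b (0.91).

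**Figure D2:**
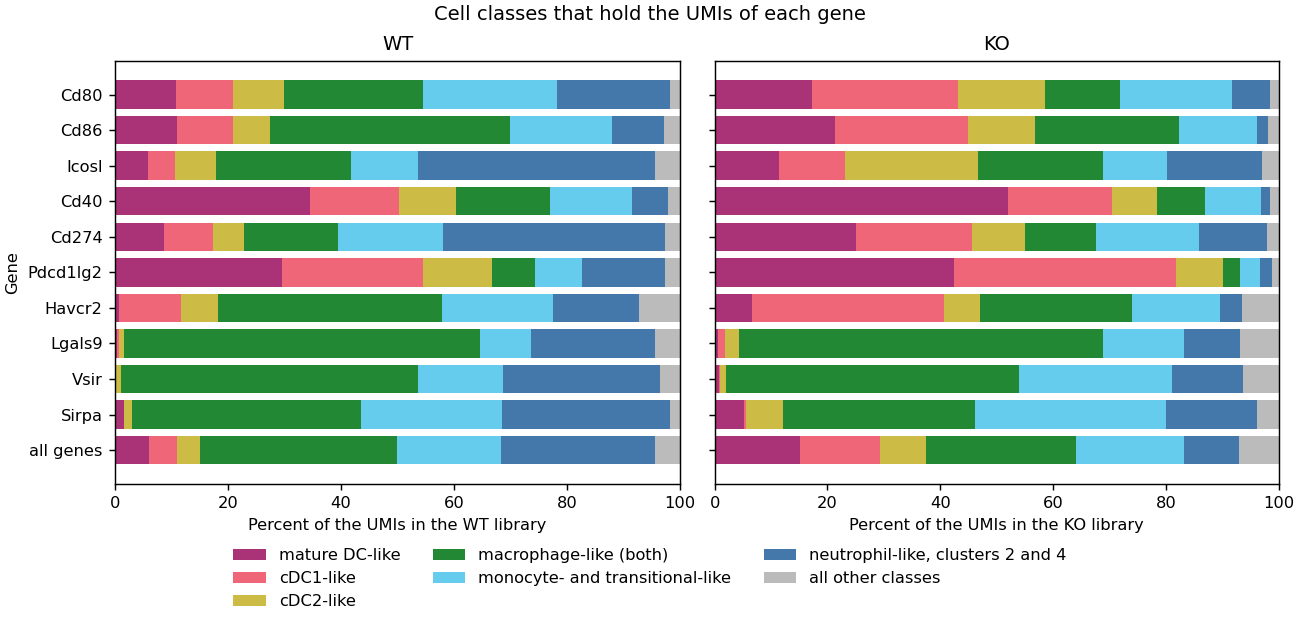
Percent of the UMIs of each gene (bars) that came from each group of classes in the WT library (left) and the KO library (right), with all genes as the bottom bar. Mature DC-like, cDC1-like and cDC2-like cells held 12.2% to 29.5% each of the WT UMIs of Pdcd1lg2, while neutrophil-like cells with clusters 2 and 4 held 39.3% of those of Cd274 in WT and 11.9% in KO.

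The KO library was richer in DCs and poorer in granule-rich neutrophil-like cells, which bears on every whole-library level. Mature DC-like cells were 5.19% of WT cells (exact binomial interval 4.39% to 6.10%) and 11.9% of KO cells (10.5% to 13.4%). The cDC1-like share was 3.04% in WT and 7.90% in KO, and the cDC2-like share 5.12% and 8.60%. Granule-rich neutrophil-like cells were 18.4% of WT and 4.30% of KO cells, and cluster 2 was 6.64% and 15.8%. These are shares of cells kept from 1 library each, which the sort, the cell filter and the pooling of mice can also set. In the KO library, mature DC-like cells held 52.0% of all Cd40 UMIs, against 34.5% in WT.

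Over whole libraries, Cd40 was 72.6 CPM in WT (67.9 to 77.5) and 152 CPM in KO (143 to 161), a 2.09-fold difference. Pdcd1lg2 was 61.3 CPM in WT and 112 CPM in KO (log2 ratio 0.88, 0.73 to 1.02). Cd86 was 283 and 334 CPM (0.24). Lower in KO were Cd274 (331 and 287 CPM, log2 ratio -0.21, -0.28 to -0.13), Sirpa (221 and 184 CPM, -0.26) and Lgals9 (152 and 124 CPM, -0.29). The intervals of Cd80 (88.3 and 83.0 CPM), Havcr2 (78.6 and 75.9 CPM), Vsir (56.8 and 51.6 CPM) and Icosl (28.3 and 31.5 CPM) included a ratio of 1. Past 2-fold were 1 of the 10 genes in the higher direction, Cd40, and 0 in the lower, against 3.43% and 1.87% of 9856 genes. Under TMM scaling, which shifts all KO over WT log2 ratios by 0.13, Cd40 was at 0.93, below 2-fold.

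These ratios were then recomputed with class make-up held, by weighting the KO level of each class by that class's share of WT UMIs. The Pdcd1lg2 ratio went from 0.88 to -0.22 (-0.38 to -0.05), and that of Cd86 from 0.24 to -0.13. Cd40 stayed higher in KO, at 0.29. Cd274 was at -0.35 (-0.46 to -0.25), Cd80 at -0.48 and Havcr2 at -0.38. Lgals9 turned from -0.29 to 0.17, and Sirpa from -0.26 to 0.13. Under the TMM shift of the whole libraries, whose class make-up differs, Sirpa was at -0.0020. The TMM shift of the held profiles was 0.02. Vsir was at 0.28, and the interval of Icosl included a ratio of 1.

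**Figure D3:**
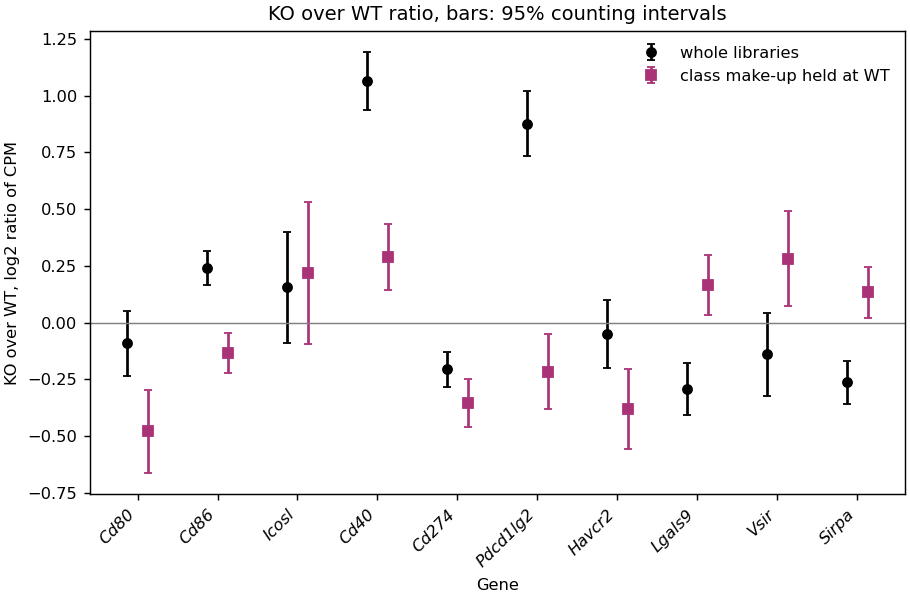
KO over WT log2 ratio of each gene over whole libraries (circles) and with class make-up held at that of WT (squares), with bars for 95% counting intervals. The squares of Pdcd1lg2 and Cd40 lie below their circles, at -0.22 and 0.29, and those of Lgals9 and Sirpa lie above theirs, on the other side of 0.

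Within classes, the share of all genes with an interval that excluded 0 was not counted. All classes come from the same pair of libraries, so they are not separate observations. Cd274 was lower in KO in 8 of 16 classes by its interval and higher in 0. The log2 ratio was -0.50 (-0.70 to -0.29) in cDC1-like, -0.48 (-0.77 to -0.20) in cDC2-like, -0.43 (-0.83 to -0.07) in granule-rich neutrophil-like and -0.69 (-1.04 to -0.33) in cluster 2 cells. Cluster 4 (-0.52), the Cx3cr1 macrophage-like (-0.45), the transitional-like (-0.29) and the monocyte-like class (-0.26) were the others. In mature DC-like cells the ratio was 0.00 (-0.20 to 0.19), and in the Folr2 macrophage-like class -0.17 (-0.42 to 0.08). In each of the 8 classes the ratio stayed negative in all 12 or 13 alternative analyses of the class, though it ran from -2.21 to -0.38 in cluster 2, from -1.12 to -0.35 in granule-rich neutrophil-like cells and from -0.58 to -0.095 in the Cx3cr1 macrophage-like class. Neutrophil markers, a list of 12 genes, were also lower in KO in 6 of these 8 classes, but not in cluster 2 (16669 CPM in WT and 28427 CPM in KO) or in transitional-like cells (2770 and 2966 CPM). Their summed level was 350 CPM in WT and 155 CPM in KO cDC1-like cells, 2108 and 813 CPM in cDC2-like cells and 907 and 244 CPM in mature DC-like cells, with 3 of 12 genes at 0 in WT cDC1-like cells and 2 of 12 at 0 in KO mature DC-like cells. It was 54228 and 48856 CPM in granule-rich neutrophil-like cells, where Cd274 stood at 542 and 401 CPM. The part of this signal in the lower Cd274 was not tested.

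**Figure D4:**
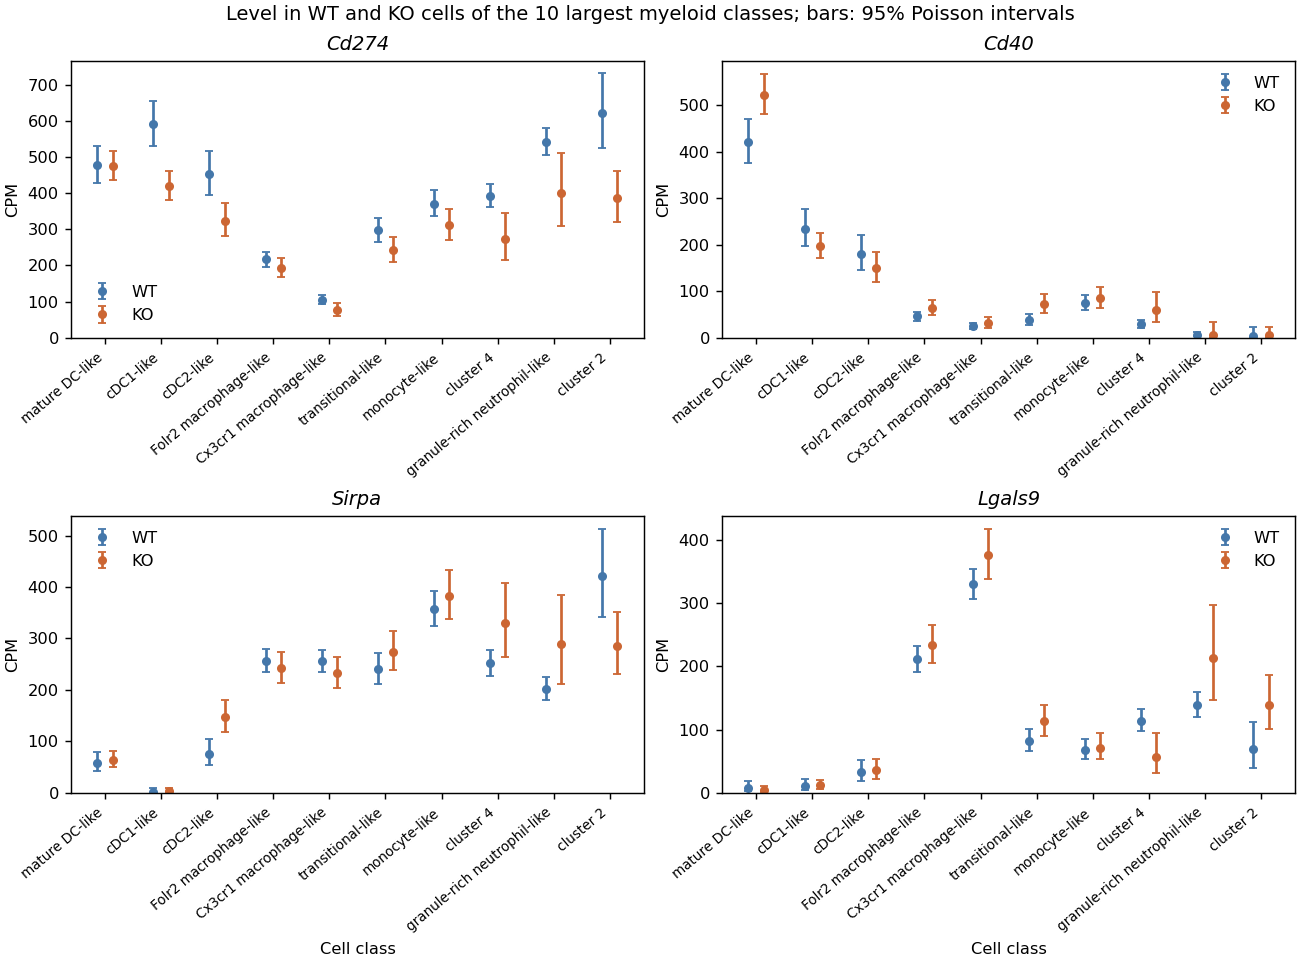
CPM of Cd274, Cd40, Sirpa and Lgals9 (one panel each) in WT (blue) and KO (orange) cells of the 10 largest myeloid classes, with 95% Poisson intervals as bars. For Cd274 the KO point lies below the WT point in each class but is nearly level in mature DC-like cells (477 and 475 CPM), and for Sirpa the gap in cDC2-like cells runs from 76.2 to 147 CPM.

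Cd40 was higher in KO in 4 classes by its interval and lower in 0. In mature DC-like cells the log2 ratio was 0.31 (0.11 to 0.52), and over the alternatives it ran from 0.10 to 0.32. The other 3 were the transitional-like class (37.8 and 71.8 CPM, 0.92), cluster 4 (29.2 and 60.7 CPM, 1.06) and the Folr2 macrophage-like class (0.48, 0.001 to 0.95). Their ranges over the alternatives were 0.32 to 1.14, 0.29 to 1.26 and 0.35 to 0.87. The cluster 4 value came from 47 WT and 16 KO UMIs. In cluster 4 neutrophil markers summed to 20678 CPM in WT and 14078 CPM in KO, and macrophage markers to 1464 and 2395 CPM. The part of this unlike mix in the cluster 4 ratios was not tested. In cDC1-like and cDC2-like cells the Cd40 intervals included a ratio of 1 (-0.25, -0.56 to 0.07, and -0.27, -0.70 to 0.17). Pdcd1lg2 was level in cDC1-like (0.00, -0.26 to 0.26) and mature DC-like cells (0.06, -0.18 to 0.31), and lower in KO in cDC2-like cells (-0.71, -1.18 to -0.25) and cluster 2. Cd86 differed by its interval in 3 classes, all lower in KO, and in no DC class, with 0.10 (-0.15 to 0.36) in cDC2-like cells. The 3 were the transitional-like class (-0.25, -0.48 to -0.015), cluster 11 (-1.01, in 13 WT and 20 KO cells) and the B- or plasma-cell-like class (-2.67, from 11 WT and 2 KO UMIs). Cd80 was lower in KO in mature DC-like cells (-0.75, -1.15 to -0.36) and in the Folr2 (-0.57) and Cx3cr1 (-0.65) macrophage-like classes, and higher in 0.

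In cDC2-like cells several inhibitory and costimulatory genes moved unlike each other. Sirpa was 76.2 CPM in WT, from 38 UMIs in 25 of 138 cells, and 147 CPM in KO, from 91 UMIs in 62 of 172 cells, a log2 ratio of 0.94 (0.38 to 1.53). Icosl was 50.1 and 90.2 CPM (0.85, 0.14 to 1.59), although 8 of its 25 WT UMIs came from 1 cell. Havcr2 was 124 CPM in WT and 59.6 CPM in KO cDC2-like cells (-1.06, -1.69 to -0.45). The DC classes were not sharply apart, and cDC1-like cells held Sirpa at 1.66 and 3.74 CPM and Havcr2 at 176 and 182 CPM. In cDC2-like cells neutrophil markers summed to 2108 CPM in WT and 813 CPM in KO, and mature DC markers to 5068 and 5104 CPM. The part of an unlike cell mix in these cDC2-like ratios was not tested. Of the 8 member genes with at least 50 UMIs in this class, 0 were past 2-fold higher and 1 lower, Havcr2, against 1.62% and 1.34% of 3281 genes. By its interval Sirpa was also higher in KO in granule-rich neutrophil-like (0.52), cluster 4 (0.39) and T-cell-like cells, and lower in cluster 2 (-0.56). Havcr2 was also lower in monocyte-like (-0.58), cluster 2 (-1.33) and mast-cell-like cells, and higher in mature DC-like cells. Neither change was therefore particular to cDC2-like cells.

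In the Folr2 and Cx3cr1 macrophage-like classes the Sirpa log2 ratio was -0.08 (-0.31 to 0.14) and -0.14 (-0.36 to 0.09). These ranges did not overlap that in cDC2-like cells. Ranges of Icosl (0.60 and 0.36) and Havcr2 (-0.27 and -0.17) overlapped those in cDC2-like cells. So did those of Cd80 (-0.57 and -0.65, against -0.32) and Cd40 (0.48 and 0.37, against -0.27). The Cd40 interval in the Cx3cr1 class included a ratio of 1 (-0.31 to 1.03). Differences between classes were not tested. Vsir was higher in KO in the Folr2 class (92.3 and 125 CPM, 0.44, 0.10 to 0.77) and in monocyte-like cells (56.0 and 93.7 CPM, 0.74), and its interval included a ratio of 1 in the Cx3cr1 class (-0.08). Lgals9 was higher in the Cx3cr1 class (0.19, 0.01 to 0.37), granule-rich neutrophil-like cells (139 and 213 CPM, 0.62), cluster 2 (1.01) and transitional-like cells (0.46), but the last was -0.06 when clusters came from the WT library alone. It was lower in cluster 4 (114 and 56.9 CPM, -1.004, -1.87 to -0.24), where summed neutrophil markers were also lower in KO. Macrophage markers, a list of 11 genes, were themselves higher in KO in the Folr2 class (14603 and 21082 CPM) and the Cx3cr1 class (15008 and 20529 CPM). Their part in the higher Cd40, Vsir and Lgals9 of these classes was not tested. Past 2-fold were 0 of 9 genes in either direction in the Cx3cr1 class, against 0.508% of genes higher and 1.49% lower, and 0 of 10 in the Folr2 class, against 0.692% and 1.56%. In mature DC-like cells 0 of 6 genes with 50 UMIs were past 2-fold, against 0.870% higher and 1.08% lower, and in cDC1-like cells 0 of 6, against 2.63% and 0.918%. Havcr2 had 45 UMIs in mature DC-like cells, too few for that count. They came from 7 of 140 WT cells and 25 of 237 KO cells, and the log2 ratio was 1.80 (0.62 to 3.21).

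Each cell was thinned to 1000 UMIs to compare shares of cells with a UMI, which left out 186 WT cells (6.90%) and 307 KO cells (15.4%). Cd274 was found in 40 of 82 WT cDC1-like cells (48.8%, exact binomial interval 37.6% to 60.1%) and in 39 of 152 KO cDC1-like cells (25.7%, 18.9% to 33.4%), and in 92.7% and 78.5% without thinning. In mature DC-like cells the shares were 37.3% and 36.8% (79.3% and 72.6% unthinned), and in granule-rich neutrophil-like cells 37.3% and 24.7% (68.7% and 41.9% unthinned). T-cell-like cells, taken for comparison, had Cd274 in 14.3% and 8.89% (19.4% and 9.17% unthinned). Their median was 2058 and 1546 UMIs per cell, against 6722 and 5804 in cDC1-like cells. This class is not a floor, as its Pdcd1lg2 level with both libraries summed (44.0 CPM) was above that of monocyte-like cells (6.48 CPM).

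Cd40 was found after thinning in 29.1% of WT (21.6% to 37.6%) and 33.6% of KO (27.5% to 40.2%) mature DC-like cells, against 1.79% and 1.11% of T-cell-like cells. Without thinning Cd40 was in 65.7% and 65.8% of mature DC-like and in 1.49% and 1.67% of T-cell-like cells. Over all cells, its share after thinning was 5.38% in WT and 10.2% in KO (15.4% and 23.0% unthinned).

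Pdcd1lg2 was found after thinning in 17.2% of WT (11.2% to 24.6%) and 26.9% of KO (21.2% to 33.2%) mature DC-like cells, ranges that overlap, and in 53.6% and 51.9% without thinning. T-cell-like cells had Pdcd1lg2 in 7.14% and 3.33% (13.4% and 5.00% unthinned). Cd274 and Pdcd1lg2 were found together, after thinning, in 8 of 82 WT and 7 of 152 KO cDC1-like cells and in 9 of 134 WT and 18 of 223 KO mature DC-like cells, against 1 of 268 and 1 of 164 in the Folr2 macrophage-like class. Unthinned, 61.0% and 55.7% of cDC1-like and 45.7% and 42.2% of mature DC-like cells held both transcripts. Cd40 and Cd86 were together in 11 of 134 WT and 29 of 223 KO mature DC-like cells after thinning (47.1% and 53.6% unthinned), with overlapping ranges.

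**Figure D5:**
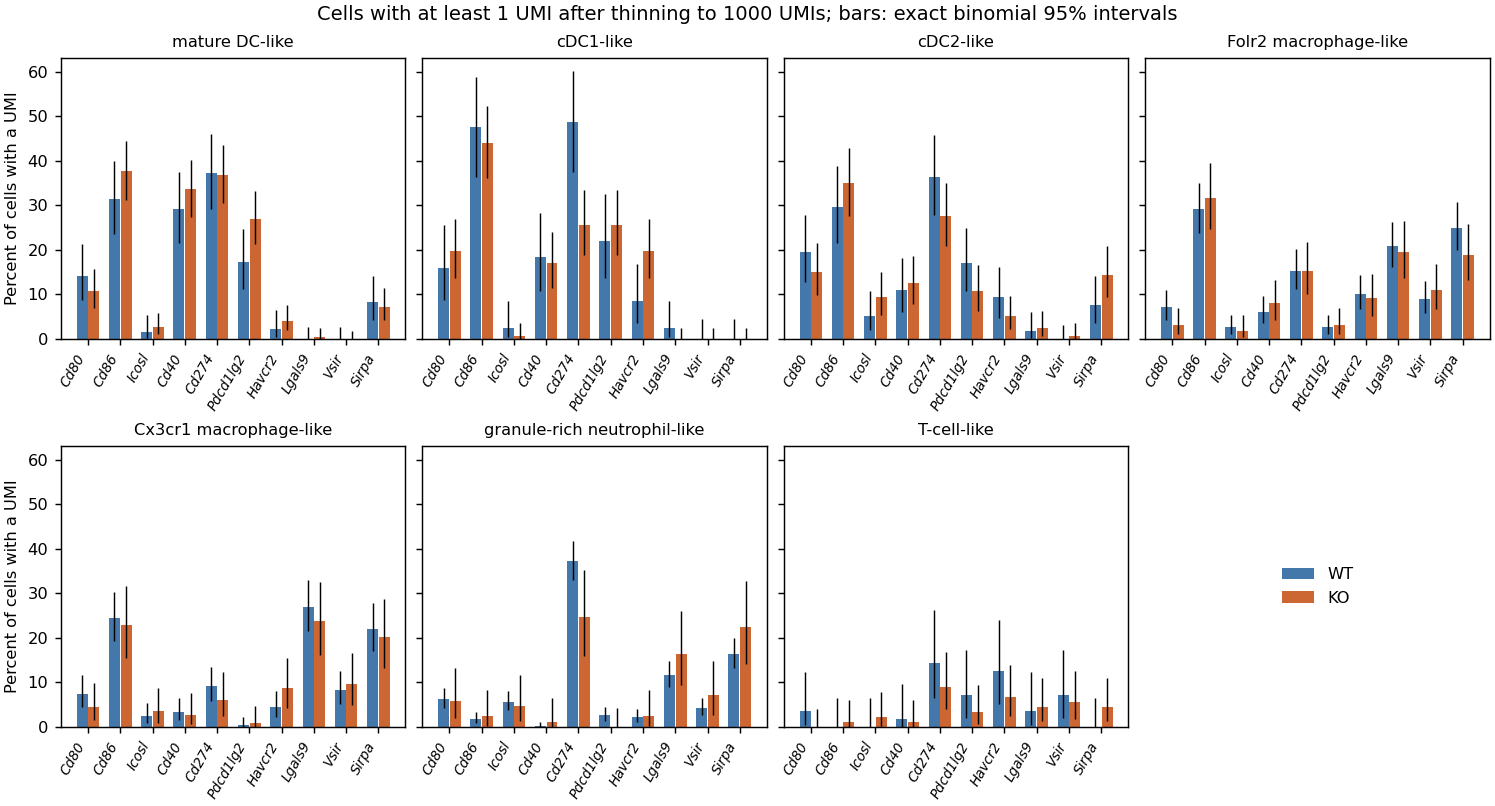
Percent of cells with at least 1 UMI of each gene in 7 classes after thinning to 1000 UMIs per cell, for WT (blue) and KO (orange), with exact binomial 95% intervals as bars. Cd274 in cDC1-like cells (48.8% and 25.7%) differ by ranges that do not overlap, and Vsir is at 0 in mature DC-like and cDC1-like cells.

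Of 51 other genes of these pathways, 40 had at least 50 UMIs, and over whole libraries 9 were past 2-fold higher in KO and 3 lower, against 3.43% and 1.87% of all genes. Among costimulatory and inhibitory receptors of T cells, not all of which bind the 10 members, 8 of 8 measured genes had intervals above 0. So did 33.7% of all 9856 genes. T-cell-like cells were 67 of 2696 WT and 120 of 1999 KO cells, and Tnfrsf4 (by 2.96 on the log2 scale), Tnfrsf18 (by 3.12) and Tnfrsf9 (by 1.11) were also higher in mature DC-like than in all other cells. With class make-up held, the 8 log2 ratios ran from -0.14 (Tnfrsf18) to 1.21 (Lag3), with Ctla4 at 0.32 and Pdcd1 at 0.09. Past 2-fold over whole libraries were Tnfrsf4 (6.92 and 20.6 CPM, log2 ratio 1.58), Ctla4 (10.3 and 28.1 CPM, 1.44), Cd28 (2.93 and 7.94 CPM, 1.44), Icos (22.1 and 56.6 CPM, 1.35), Pdcd1 (3.83 and 8.47 CPM, 1.15) and Lag3 (1.87 and 4.10 CPM, 1.13). Of the inhibitory receptors of myeloid cells, 7 of 8 had intervals below 0, as did 15.6% of all 9856 genes, and 0 were past 2-fold. With class make-up held, their log2 ratios ran from -0.26 to 0.17, with a median of -0.038, and Siglece went from -0.80 to 0.17. Among the nectin-family ligands, which engage TIGIT and CD226 on T cells, Pvr was 116 and 169 CPM (0.54, and 0.024 with class make-up held).

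Of the TNF-family ligands, Tnfsf8, the CD30 ligand, was higher (2.36 and 7.41 CPM, 1.65), and Tnfsf14, encoding LIGHT, lower (21.6 and 10.6 CPM, -1.03). Among suppressive factors, Ido1 (1.71 and 10.3 CPM, 2.59) and Il4i1 (16.8 and 34.1 CPM, 1.02), enzymes that degrade amino acids, were higher, and the cytokine Il10 (66.3 and 32.2 CPM, -1.04) and the ATP-degrading Entpd1 (348 and 169 CPM, -1.04) were lower. With class make-up held, Il4i1 was at -0.06, Tnfsf14 at -0.22 and Entpd1 at -0.27, whereas Ido1 was at 1.19, Tnfsf8 at 1.03 and Il10 at -0.82. Il4i1 was higher in mature DC-like than in all other cells by 3.66 and Ido1 by 3.53 on the log2 scale. Il4i1 was among the markers that named mature DC-like cells, so its level there is no separate result. Past 2-fold higher in mature DC-like cells were 12 of the 40 genes, Il4i1 included, against 12.9% of all genes.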

How the data were processed

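The authors deposited a matrix of UMI counts per gene and cell barcode for each library, made with the SeekOne MM 3′ kit per the study's methods, while a label names 10x Genomics. The submitters' processing notes name Cell Ranger 2.1.1 and mm10, with no role given. The cells analysed had 200 to 4000 detected genes and a mitochondrial share of no more than 5%. Cells were clustered with Seurat 5.3.0 in R 4.3.3 (2000 variable genes without the 10 member and the pathway genes, 20 principal components, resolution 0.8), and classes were named after the clusters were seen, from marker lists. Scrublet in scanpy 1.11.5 called 0 WT and 1 KO of the cells kept, so doublets were not effectively removed.

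Counts were summed per class and library and divided by total UMIs. Ratios carry exact conditional intervals (Clopper-Pearson), those with class make-up held an interval by error propagation. With 1 library per group no p-value was computed, and PCR or cell-to-cell spread is not in the intervals. The ratio calculation was run on simulated Poisson counts, the model that the intervals assume, so that run says nothing of other spread. A gene was counted past 2-fold with at least 50 UMIs, and a group at 0 was set to 3 counts. TMM factors came from edgeR 4.0.16. Coordinates are GENCODE M21 (GRCm38) by gene identifier, and promoters RefSeq. Named were the 10 members, pathway genes past 2-fold, the 3 genes most like each member (some of them are not reported here), and some others chosen after their values were seen (Pvr). The members and lists were chosen with earlier results of these data known. Alternatives comprised other cell filters, doublet removal, clusterings, scalings and thinning depths.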

Additional observations from a re-analysis of the deposited data

Results flagged for a closer look

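Some genes had counting intervals above 0 in one class and below 0 in another, among classes with at least 20 UMIs, and the difference between the classes was not tested. The KO over WT log2 ratio of Havcr2 was 1.80 in mature DC-like and -2.69 in mast-cell-like cells, the latter with 16 WT and 5 KO cells. That of Vsir was 0.74 in monocyte-like cells and -0.91 in cluster 2. That of Sirpa was 0.94 in cDC2-like cells and -0.56 in cluster 2. That of Lgals9 was 1.46 in mast-cell-like cells and -1.004 in cluster 4. The mast-cell-like value came from 13 WT and 10 KO UMIs, and 6 of these KO UMIs came from 1 cell.

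The main comparisons did not use the 771 WT and 1081 KO barcodes outside the cell filter. These barcodes also held the 10 genes above the limit that a count of 0 allows. With both libraries summed, their levels there were 252 CPM for Cd274, 98.2 CPM for Pdcd1lg2, 78.5 CPM for Cd80, 338 CPM for Cd86, 119 CPM for Cd40, 70.6 CPM for Havcr2, 38.9 CPM for Vsir, 135 CPM for Sirpa, 143 CPM for Lgals9 and 22.7 CPM for Icosl. In WT and KO these barcodes held Cd274 at 229 and 272 CPM, Pdcd1lg2 at 61.9 and 129 CPM and Cd80 at 77.8 and 79.1 CPM. Cd86 was at 291 and 377.5 CPM, Cd40 at 70.55 and 160 CPM, and Havcr2 at 76.1 and 65.9 CPM. Vsir was at 42.7 and 35.8 CPM, Sirpa at 159 and 115 CPM, Lgals9 at 185 and 108 CPM and Icosl at 20.1 and 24.95 CPM.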

How the results depend on the processing

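No paired analysis was possible because each group has 1 library, and for the same reason no library could be left out. Depth limits the rarer genes, such as Icosl in DC classes and Havcr2 in mature DC-like cells. All values below are KO over WT log2 ratios. Over whole libraries the 10 genes kept their direction in the 8 alternatives run for each. TMM scaling gave -0.34 for Cd274, 0.10 for Cd86, 0.93 for Cd40, -0.40 for Sirpa and -0.43 for Lgals9. The mean over cells gave -0.36 for Cd274, 0.45 for Pdcd1lg2, 0.13 for Cd86, -0.31 for Havcr2 and -0.15 for Sirpa. With no filter on cells, Cd274 was at -0.13, Sirpa at -0.38 and Lgals9 at -0.43, and with a 10% mitochondrial limit Sirpa was at -0.39 and Lgals9 at -0.41. Leaving out barcodes found in both libraries, an alternative chosen after seeing the data, moved none of the 10 ratios beyond its interval. With class make-up held, TMM scaling by the whole-library shift gave -0.49 for Cd274, -0.27 for Cd86, 0.032 for Lgals9 and, reversed, -0.0020 for Sirpa. That shift comes from libraries of unlike class make-up. Scaling by the held profiles themselves, also chosen after seeing the data, shifted ratios by 0.02 and moved none beyond its interval. The mean over cells gave -0.44 for Pdcd1lg2 and -0.58 for Havcr2. Of 77 ratios within a class, 32 had an interval that excluded 0, and 1 of these changed sign in an alternative, Lgals9 in transitional-like cells at -0.060 with clusters from the WT library alone. Of the 45 whose interval included 0, 23 changed sign in at least 1 alternative. The share of all genes with an interval that excluded 0 within a class was not counted, so 32 of 77 describes stability only. Over the ratios within a class and their alternatives, 956 values stayed within the interval and 19 moved beyond it, besides the 1 that reversed. For the share of cells with a UMI, thinning to 500 UMIs gave -0.39 for Cd80, 0.17 for Cd86, -0.27 for Havcr2 and -0.54 for Vsir. At 1000 UMIs Havcr2 was at 0.13 and Vsir at 0.028, with intervals that included 0, and both changed sign at 500, at 2000 and without thinning. Icosl, at 0.084 with an interval that included 0, changed sign at 2000 (-0.14) and without thinning (-0.16). Without thinning the values were 0.32 for Pdcd1lg2, 0.58 for Cd40, -0.31 for Havcr2, -0.48 for Vsir, -0.60 for Lgals9 and, reversed, -0.025 for Cd86. The count of genes past 2-fold higher was 338, 632 with a minimum of 20 UMIs and 205 with a minimum of 100, and the count lower was 184, or 290 with a minimum of 20. The causes of these changes were not tested.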
